A study of Homo sapiens with 24 samples.

Results

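The epithelial-mesenchymal transition (EMT) genes described here are CDH1, ESRP1, CDH2, VIM, FN1, ZEB1, ZEB2, SNAI1, SNAI2 and TWIST1, chosen by gene symbol as the textbook effectors and regulators of that transition. They are 10 of the 14409 genes listed in any of the 3 count tables of the series. Rows for 8 of them were used, and SNAI2 and TWIST1 were not analysed here. The study asked what happens when an acinar transcription factor is switched back on in pancreatic cancer cells. Panc-1, an established human line from a pancreatic ductal carcinoma, had been given a doxycycline-inducible plasmid, and individual clones were screened after puromycin selection, so a difference between lines cannot be told apart from one between clones. Tet-One cells (passage 32) carry the empty plasmid, Tet-PTF1a cells (passage 32) the mouse PTF1a-myc reading frame and Tet-MIST1 cells (passage 33) the rat MIST1-myc reading frame. All 3 lines are thus Panc-1 cells with the same plasmid backbone. Each was grown without doxycycline (Control) or with 1 µg/ml doxycycline (Dox) for 72 h, in 4 libraries of polyadenylated RNA per group, which gives 24 libraries in 6 groups.

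In EMT, an epithelial cell gives up its junctions and polarity and takes on a motile, matrix-producing form. E-cadherin, the product of CDH1, holds epithelial cells together, while N-cadherin (CDH2), the intermediate filament protein vimentin (VIM) and the matrix protein fibronectin (FN1) mark the mesenchymal state. The zinc finger proteins of the ZEB and SNAI families and the basic helix-loop-helix protein TWIST1 drive the switch. The ZEB and SNAI proteins bind E boxes, short DNA elements with the letters CANNTG, and repress CDH1 and other epithelial genes. ESRP1 is an epithelial splicing factor that ZEB proteins repress. PTF1a and MIST1 are basic helix-loop-helix factors of pancreatic acinar cells and bind E boxes too, PTF1a in a complex that also reads a TC box. In ductal carcinoma, a mesenchymal state is associated with invasion and drug resistance.

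The libraries held 17210989 to 43018494 counted reads, and the Tet-PTF1a libraries spanned that whole range. The human PTF1A row, used as a check of the labels, had 0 to 2 counts in the Tet-PTF1a Control libraries and 53 to 168 in the Tet-PTF1a Dox libraries; whether those reads came from the mouse transgene or the human gene cannot be told apart. Panc-1 cells were checked against markers of cell types. Of 9 ductal epithelial markers, 7 were measured, with a summed level of 1727 to 8130 CPM (counts scaled to the size of the library) over the 24 libraries. The leukocyte markers CD14 and ITGAM, 2 of 9, summed to at most 1.57 CPM, the 6 endothelial markers were not analysed here, and the acinar markers, of which 1 or 2 of 12 had a value, summed to at most 4.32 CPM. In Tet-PTF1a, the ductal sum was 3466 to 3639 CPM in Control and 1749 to 1800 CPM in Dox. Of the 7 ductal markers, 2 were called higher and 5 lower with Dox there, against 23.8% and 24.4% of all genes tested. In the mean, KRT8 went from 1820 to 742 CPM and KRT18 from 1116 to 522 CPM. The acinar sum in that line was 0.546 to 0.849 CPM in Control and 3.27 to 4.32 CPM in Dox. Replicate 1 of Tet-One Dox stood apart: its log2 deviations from the mean of the other libraries of its group had an SD of 0.558 across genes. They fell with exon length (Spearman's rho -0.738 across 11898 genes, which are not independent). The other Tet-One Dox libraries had an SD of 0.194 to 0.219, from means that include replicate 1. Replicate 1 of Tet-MIST1 Dox showed the same trend with length (rho -0.673) at a smaller SD of 0.223. Both libraries were kept, and fold changes of EMT genes without them are given beside the Dox and response comparisons. Mean levels include them, and results of related genes and gene lists without them are not given.

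Promoters are shown for the EMT genes that changed with PTF1a induction and have an entry in RefSeq's promoter table (GRCh38.p14), from 250 bases before to 50 after the annotated start. Capitals mark E boxes (CANNTG) and TC boxes (TGGGAAA on either strand), which did not overlap, and every sequence is written 5′ to 3′ on the strand of the gene. The VIM window is chr10:17227991-17228290 on the plus strand, the FN1 window chr2:215436019-215436318 on the minus strand and the ZEB2 window chr2:144520070-144520369 on the minus strand.
ZEB2: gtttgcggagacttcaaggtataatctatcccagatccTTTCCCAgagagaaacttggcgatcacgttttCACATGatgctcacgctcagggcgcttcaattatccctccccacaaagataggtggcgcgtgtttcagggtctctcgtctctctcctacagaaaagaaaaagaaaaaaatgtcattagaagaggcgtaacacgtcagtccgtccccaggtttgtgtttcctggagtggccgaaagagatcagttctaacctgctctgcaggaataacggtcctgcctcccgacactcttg
VIM: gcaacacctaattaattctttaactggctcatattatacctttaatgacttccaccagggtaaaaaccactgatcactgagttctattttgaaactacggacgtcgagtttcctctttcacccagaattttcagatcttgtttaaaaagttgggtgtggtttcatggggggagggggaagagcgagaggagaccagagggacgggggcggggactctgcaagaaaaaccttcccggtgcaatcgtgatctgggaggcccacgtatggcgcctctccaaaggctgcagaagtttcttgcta
FN1: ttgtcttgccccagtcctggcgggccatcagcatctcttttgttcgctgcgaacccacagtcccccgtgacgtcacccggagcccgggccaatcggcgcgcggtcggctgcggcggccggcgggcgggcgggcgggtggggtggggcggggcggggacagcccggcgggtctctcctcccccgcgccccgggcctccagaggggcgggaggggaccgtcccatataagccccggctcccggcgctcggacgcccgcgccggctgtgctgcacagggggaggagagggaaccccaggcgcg

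The ZEB2 window held 1 E box, CACATG, beginning 180 bases before the start, and 1 TC box on the opposite strand, beginning 212 bases before it. The windows of VIM and FN1 held neither. Of 34796 distinct promoters of that length in the table, 68.7% held a CANNTG and 7.91% a TC box. Of the 10 EMT genes, 5 matched the table, with 12 windows. CDH2 had 2 windows, of which 1 held an E box (CAGATG), and ZEB1 had 7, of which 4 held at least 1 and 2 held the CACCTG or CAGGTG form that occurred in 20.6% of all promoters. CDH1, SNAI1, ESRP1, SNAI2 and TWIST1 were not matched. These matches of letters are a description of the windows and carry no information on binding.

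In Tet-PTF1a cells, 72 h of Dox went with more CDH1 and ZEB2 mRNA and less VIM mRNA. CDH1 rose 1.77-fold and ZEB2, an EMT repressor of CDH1, rose by 51.5% in deposited CPM in the same cells, while VIM fell by 20.3%. FN1 rose 1.16-fold and ESRP1 fell by 15.7% in CPM, both close to the threshold, and CDH2, SNAI1 and ZEB1 did not pass the test. Thus 5 of 8 EMT genes were called at an adjusted p under 0.05 (edgeR's quasi-likelihood test, Benjamini-Hochberg over 14051 genes), 3 higher and 2 lower. The background was high: 48.2% of all genes tested were called, 23.8% higher and 24.4% lower, so the share of EMT genes called was near that of all genes. The 8 genes had a median absolute log2 fold change of 0.24, against 0.12 over all genes tested. Levels below are the deposited CPM, which are scaled per library, and fold changes come from the counts. In bulk RNA, fewer cells expressing a gene and less RNA per cell cannot be told apart.

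**Figure D1:**
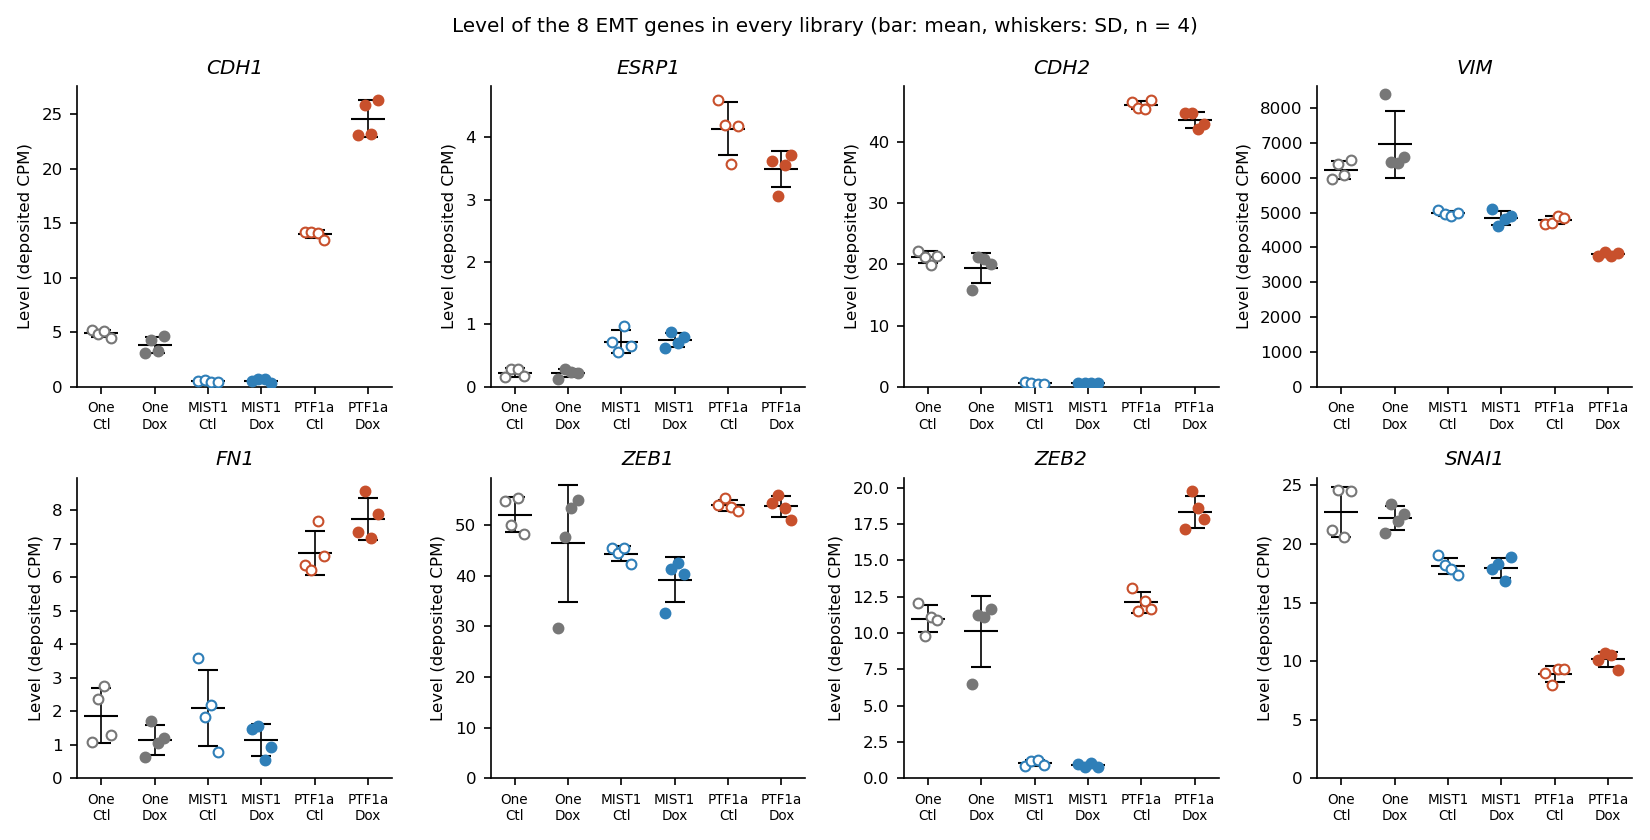
Level of each EMT gene (deposited CPM, linear axis from 0) in every library of the 6 groups, with open points for Control and filled points for Dox, bars for the mean and whiskers for the SD (n = 4). The 4 Tet-PTF1a Dox libraries lie above 23 CPM for CDH1 and below 3870 CPM for VIM, apart from their Control libraries, and the Tet-MIST1 libraries lie near the axis for CDH1, CDH2 and ZEB2.

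CDH1 (hg19 chr16:68771195-68869444, plus strand, 16 listed exons) was at 14.2, 14.2, 14.1 and 13.5 CPM in the 4 Tet-PTF1a Control libraries and at 23.1, 25.8, 23.2 and 26.3 CPM with Dox. Every Dox library lay above every Control library. The counts behind these levels were 253 to 604 per Control library and 403 to 864 per Dox library. The log2 fold change was 0.82 ± 0.0549 (SE; 95% interval 0.71 to 0.93; edgeR adjusted p = 3.87e-18). It was called in each of 8 fits that left out 1 library, at 0.78 to 0.85.

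ESRP1 (hg19 chr8:95653364-95719694, plus strand), the epithelial splicing factor, did not follow CDH1. Its Control libraries held 4.60, 4.20, 3.57 and 4.17 CPM and its Dox libraries 3.62, 3.06, 3.55 and 3.72 CPM. The ranges overlap, since Control replicate 3 lies below 2 of the Dox libraries. The log2 fold change was -0.26 ± 0.110 (SE; edgeR adjusted p = 0.0476). The call was lost without Control replicate 1, 2 or 4 or Dox replicate 1, 2 or 3 (adjusted p 0.0593 to 0.199), with DESeq2 (0.145), with library size scaling (0.0885) and in a fit of all 24 libraries (0.166).

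VIM (hg19 chr10:17270258-17279592, plus strand) was by far the most abundant of the 8 transcripts: per kb of exon it stood at 2236 CPM in Tet-PTF1a Control, against 10.4 for CDH2, the next. The Control libraries held 4660, 4709, 4887 and 4850 CPM and the Dox libraries 3757, 3870, 3764 and 3841 CPM. No Dox library reached the lowest Control library. The log2 fold change was -0.33 ± 0.0177 (SE; edgeR adjusted p = 1.38e-21), with a 95% interval of -0.36 to -0.29. VIM overlaps VIM-AS1 on the opposite strand, and the sources used here do not state whether strand was used in counting, so reads in the overlap cannot be told apart. VIM-AS1 stood at 11.5 to 22.8 CPM in this line, far below VIM, with a log2 fold change of -0.42 that did not pass the test (edgeR adjusted p = 0.0575). Of 9 fibroblast markers, 4 were measured in this line, of which 2 rose, 1 fell and 1 did not pass the test. Their summed level was 198 to 206 CPM in Control and 128 to 131 CPM in Dox, and the fall was that of COL1A1 (153 to 64.5 CPM in the mean), while COL3A1 rose from 6.36 to 16.3 CPM and THY1 from 43.3 to 48.7 CPM. PDGFRB was at 0.638 and 0.601 CPM, and DCN, LUM, PDGFRA, COL1A2 and FAP were not analysed here. Their part in the result was not tested.

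FN1 (hg19 chr2:216225163-216300793, minus strand) moved the other way from VIM. It was at 6.37, 6.22, 7.69 and 6.64 CPM in Control and at 7.35, 8.58, 7.16 and 7.89 CPM in Dox, and Control replicate 3 exceeded 2 of the Dox libraries. The log2 fold change was 0.22 ± 0.0835 (SE; edgeR adjusted p = 0.0270). That call was lost without Control replicate 1, 2 or 4 or Dox replicate 2 or 4 (adjusted p 0.0571 to 0.126), with DESeq2 (0.0939) and in the fit of all 24 libraries (0.697).

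CDH2 (hg19 chr18:25530927-25757410, minus strand) was at 46.5, 45.6, 45.5 and 46.8 CPM in Control and at 44.8, 44.7, 42.1 and 43.0 CPM in Dox. The groups did not overlap, but the log2 fold change of -0.08 ± 0.0368 (SE) did not pass the test (edgeR adjusted p = 0.0580). It passed when Dox replicate 1 was left out (adjusted p = 0.0477) or a trend with length was removed (0.0371). Counting all genes, 42.3% had Control and Dox ranges that did not overlap in this line, and 4 EMT genes did: CDH1, VIM, ZEB2 and CDH2.

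Among the repressors, ZEB2 (hg19 chr2:145141942-145277958, minus strand) stood at 13.1, 11.5, 12.2 and 11.7 CPM in Control and at 17.2, 19.7, 18.6 and 17.8 CPM in Dox. Each Dox library exceeded each Control library. Its log2 fold change was 0.59 ± 0.0605 (SE; 95% interval 0.46 to 0.71; edgeR adjusted p = 1.15e-11) and lay between 0.55 and 0.64 when any 1 library was left out. ZEB1 (hg19 chr10:31608101-31818742, plus strand), the other member of the family, was at 53.9, 55.3, 53.5 and 52.8 CPM in Control and at 54.4, 55.9, 53.4 and 51.0 CPM in Dox. Its log2 fold change was -0.01 with a 95% interval of -0.08 to 0.06 (edgeR adjusted p = 0.879). SNAI1 (hg19 chr20:48599513-48605420, plus strand), which encodes Snail, was at 8.98, 7.95, 9.33 and 9.32 CPM in Control and at 10.1, 10.7, 10.5 and 9.26 CPM in Dox. Dox replicate 4 lay within the Control range, and the log2 fold change of 0.16 ± 0.0732 (SE) did not pass the test (edgeR adjusted p = 0.0602). It passed without that library (adjusted p = 0.0227), with library size scaling (0.0193) and with the length trend removed (0.0434).

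**Figure D2:**
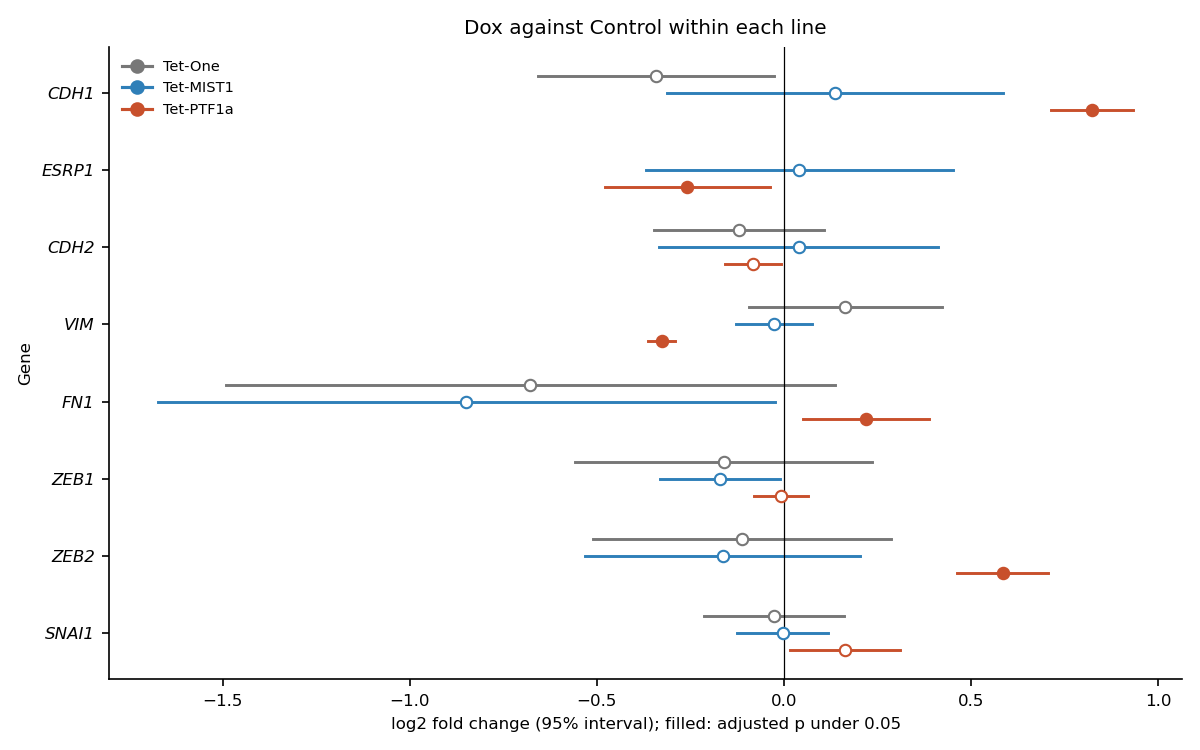
Log2 fold change of each EMT gene with Dox (x axis) in Tet-One (grey), Tet-MIST1 (blue) and Tet-PTF1a (orange) cells, with lines for 95% intervals and filled points for an adjusted p under 0.05. Only Tet-PTF1a cells have filled points, with CDH1 at 0.82, ZEB2 at 0.59, FN1 at 0.22, ESRP1 at -0.26 and VIM at -0.33. ESRP1 was not tested in Tet-One.

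In Tet-MIST1 cells, none of the 8 EMT genes was called with Dox by edgeR's quasi-likelihood test or by DESeq2, and 2 (FN1 and ZEB1) had an unadjusted p under 0.05. Of all 13621 genes tested, 20.6% were called, 11.9% higher and 8.77% lower. The median absolute log2 fold change of the 8 genes was 0.089, against 0.12 over all genes. FN1 was at 3.58, 1.84, 2.17 and 0.796 CPM in Control and at 1.48, 1.58, 0.550 and 0.937 CPM in Dox, a log2 fold change of -0.85 with a wide interval of -1.67 to -0.02 (edgeR adjusted p = 0.127). The Control libraries alone spanned more than the difference, and without Control replicate 4 the change was called at -1.10 (edgeR adjusted p = 0.0364). Without Control replicate 1, the highest of them, it was -0.48 (adjusted p = 0.376), and without Dox replicate 1 it was -1.00 (0.283). ZEB1 stood at 45.5, 44.4, 45.4 and 42.3 CPM in Control and at 32.7, 41.3, 42.6 and 40.2 CPM in Dox, of which replicate 1, the library with a length trend, was lowest. Its log2 fold change was -0.17 (edgeR adjusted p = 0.116), and -0.09 without that library (adjusted p = 0.165), where 0 of the 8 genes were called. In that fit CDH1 stood at 0.19, CDH2 at 0.06, ESRP1 at 0.12, VIM at -0.05 and ZEB2 at -0.21 on the log2 scale. CDH1, with 13 to 28 counts per library in this line, changed by 0.14 on the log2 scale with an interval of -0.31 to 0.58, so a change of the size seen in Tet-PTF1a cells lay outside the interval. With Dox, CDH1 was at 0.517, 0.697, 0.707 and 0.381 CPM, with the Control values at 0.439 to 0.646 CPM. CDH2 was at 0.591, 0.697, 0.576 and 0.615 CPM and ZEB2 at 1.01, 0.801, 1.07 and 0.762 CPM, and ZEB2 changed by -0.16 on the log2 scale (-0.53 to 0.20). These 3 genes stayed low with and without MIST1 induction. VIM was at 5078, 4965, 4908 and 4974 CPM in Control and at 5095, 4608, 4807 and 4903 CPM in Dox, a log2 fold change of -0.03 (-0.13 to 0.07). SNAI1 was at 17.4 to 19.0 CPM in Control and at 16.8 to 18.9 CPM in Dox, and ESRP1 at 0.553 to 0.971 CPM and 0.616 to 0.878 CPM, with overlapping ranges for both. Control and Dox ranges overlapped for each of the 8 EMT genes, whereas they did not for 27.1% of all genes tested.

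In Tet-One cells, which measure the response to Dox itself, 7 of the EMT genes were tested and 0 were called. Precision was lower than in Tet-PTF1a cells, with an SE of 0.175 against 0.0605 for ZEB2 and 0.114 against 0.0177 for VIM. An absent call here therefore does not exclude a change. Of all 13426 genes, 0.0% were called (0.0% higher and 0.0% lower) by edgeR's quasi-likelihood test, where 401 had an unadjusted p under 0.05, and DESeq2 called 0 as well. CDH1 was at 5.18, 4.84, 5.10 and 4.50 CPM in Control and at 3.11, 4.33, 3.32 and 4.64 CPM in Dox, and was the EMT gene with an unadjusted p under 0.05 (0.0362). Its log2 fold change was -0.34 (edgeR adjusted p = 0.897), and -0.26 without Dox replicate 1 (adjusted p = 0.362). That library held the extreme value for several of the genes, with VIM at 8397 CPM against 6408 to 6581 in the other 3 Dox libraries, ZEB2 at 6.48 against 11.1 to 11.7, ZEB1 at 29.8 against 47.7 to 54.9 and CDH2 at 15.8 against 20.04 to 21.2. Without it, the log2 fold change of VIM went from 0.16 to 0.06, that of ZEB2 from -0.11 to 0.05, that of CDH2 from -0.12 to -0.03, that of FN1 from -0.68 to -0.49 and that of ZEB1 from -0.16 to 0.00066, and 0 EMT genes were called. ESRP1 had 5 to 12 counts per library and was not tested. Control and Dox ranges did not overlap for 2.44% of all genes tested and for 0 of these 7.

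The responses themselves were then compared by an interaction of line and Dox. The Tet-PTF1a response differed from the Tet-One response for 3 of 8 EMT genes, CDH1 and ZEB2 higher and VIM lower, where 12.8% of 13519 genes were called (5.52% higher and 7.32% lower). The difference on the log2 scale was 1.15 ± 0.145 (SE) for CDH1 (edgeR adjusted p = 4.28e-05), 0.70 ± 0.194 for ZEB2 (0.0240) and -0.49 ± 0.111 for VIM (0.00671). All 3 were called without Tet-One Dox replicate 1 too, at 1.08, 0.54 and -0.38, where 30.7% of genes were called (14.6% higher and 16.1% lower). The ZEB2 call was lost without Tet-PTF1a Control replicate 4 (adjusted p = 0.0528) or Tet-PTF1a Dox replicate 2 (0.0538). For FN1 the difference was 0.88 with an interval of 0.13 to 1.64 and did not pass the test (edgeR adjusted p = 0.128), except without Tet-One Control replicate 1 (1.07, adjusted p = 0.0469).

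The Tet-PTF1a response differed from the Tet-MIST1 response for 4 EMT genes, with CDH1, ZEB2 and FN1 higher and VIM lower, where 36.4% of genes were called (17.8% higher and 18.6% lower). The difference was 0.69 ± 0.219 (SE) for CDH1 (edgeR adjusted p = 0.0172), 0.76 ± 0.176 for ZEB2 (0.00182), -0.29 ± 0.0490 for VIM (9.04e-05) and 1.07 ± 0.393 for FN1 (0.0416). The CDH1 call was lost without Tet-MIST1 Control replicate 2 (0.59, adjusted p = 0.0709) and in the fit of all 24 libraries (0.67, adjusted p = 0.0514). The FN1 call was lost in 12 of 16 fits that left out 1 library, at 0.71 to 1.23 on the log2 scale, and it was kept without Tet-PTF1a Control replicate 3, Tet-MIST1 Control replicate 2 or 4 or Tet-MIST1 Dox replicate 2. It was also lost with DESeq2 (adjusted p = 0.0863), with the length trend removed (0.111) and in the fit of all 24 libraries (0.110). Without Tet-MIST1 Dox replicate 1, the library with a length trend, CDH1 was called at 0.65, ZEB2 at 0.82 and VIM at -0.26, and FN1 was at 1.23 (adjusted p = 0.0659). Without Tet-MIST1 Dox replicate 3, ZEB1 was called too (0.22, adjusted p = 0.0443). SNAI1 was called with the length trend removed (0.28, edgeR adjusted p = 0.0236). Between the Tet-MIST1 and Tet-One responses, 0 of 8 EMT genes differed, and of all genes 1.66% did (1.48% higher and 0.187% lower), or 13.9% without Tet-One Dox replicate 1, where 0 of the 8 were called; none of the 8 had an unadjusted p under 0.05 in edgeR's test, and DESeq2 called 0 of them. These comparisons share the libraries of each line, so they are not independent of each other.

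Before any Dox was added, the EMT genes already differed strongly between the lines. Tet-MIST1 Control cells had far less CDH1, CDH2 and ZEB2 than Tet-One Control cells, and Tet-PTF1a Control cells had more CDH1, CDH2, FN1 and ESRP1 and less SNAI1. Most genes differed here: 80.2% of 13823 were called between Tet-MIST1 and Tet-One (39.5% higher and 40.7% lower) and 79.7% of 13442 between Tet-PTF1a and Tet-One (39.5% higher and 40.2% lower). Line, clone and library preparation cannot be told apart in these comparisons, and the Tet-PTF1a table was scaled apart from the other 2, so levels set across them in CPM are approximate and the tests use the counts.

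In Tet-MIST1 Control against Tet-One Control, 7 of 8 EMT genes were called, 1 higher and 6 lower. CDH1 was at 0.547, 0.646, 0.439 and 0.467 CPM in Tet-MIST1 Control, all below the lowest Tet-One Control library at 4.50 CPM, a log2 difference of -3.11 ± 0.125 (SE; edgeR adjusted p = 2.73e-14). CDH2 was at 0.746, 0.669, 0.486 and 0.522 CPM, against 22.3, 21.2, 19.9 and 21.4 CPM in Tet-One Control, or 32.5-fold lower (log2 -5.02 ± 0.0958, adjusted p = 5.08e-19). Both cadherins were thus low in the same line. ZEB2 was at 0.820, 1.18, 1.23 and 0.906 CPM, against 9.81 to 12.1 CPM, or 10.2-fold lower (log2 -3.35 ± 0.109, edgeR adjusted p = 1.20e-15). The remaining 3 lower genes, SNAI1 and VIM at -0.33 and ZEB1 at -0.24, differed much less. ESRP1 was higher, at 0.553 to 0.971 CPM against 0.153 to 0.292 CPM (log2 1.48 ± 0.239, edgeR adjusted p = 1.45e-05), and 24 to 42 counts per library against 6 to 12. It passed the filter of 0.5 CPM only through the Tet-MIST1 Control libraries, so the filter favoured a call in that direction. FN1 did not pass the test, at 0.17 with an interval of -0.97 to 1.31.

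In Tet-PTF1a Control against Tet-One Control, 6 of 8 EMT genes were called, 4 higher and 2 lower. ESRP1 differed most, at 14.1-fold higher (log2 3.82 ± 0.168, edgeR adjusted p = 3.16e-12), from 0.153 to 0.292 CPM in Tet-One Control to 3.57 to 4.60 CPM. All Tet-One Control libraries lay under the filter of 0.5 CPM for ESRP1. It entered this fit only through the Tet-PTF1a Control libraries, so the filter favoured a call in that direction. FN1 was higher by 1.72 ± 0.231 on the log2 scale (adjusted p = 7.14e-05), CDH1 by 1.42 ± 0.0651 (5.48e-12) and CDH2 by 1.04 ± 0.0430 (1.60e-12). The 4 epithelial and mesenchymal structural or splicing genes that were higher thus include markers of both states. SNAI1 was lower by a log2 of -1.42 ± 0.0732 (edgeR adjusted p = 2.61e-11), at 8.98, 7.95, 9.33 and 9.32 CPM against 21.2, 24.6, 20.6 and 24.5 CPM in Tet-One Control. VIM was lower by a log2 of -0.47 ± 0.0300 (edgeR adjusted p = 3.66e-10). ZEB1 (-0.03) and ZEB2 (0.07) did not pass the test, but with the trend with length removed ZEB2 was called lower at -0.36 (adjusted p = 9.32e-05) and ZEB1 at -0.28 (3.31e-06), so the direction for ZEB2 depends on that step.

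**Figure D3:**
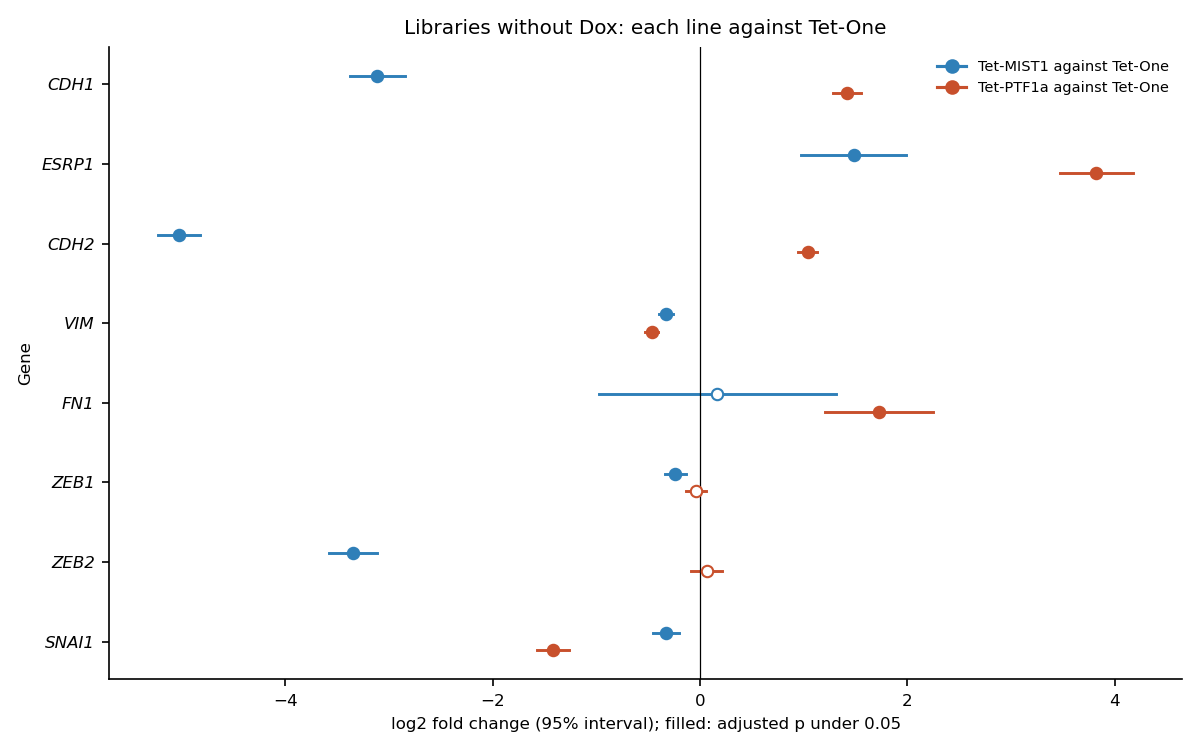
Log2 fold change (x axis) of each EMT gene between libraries grown without Dox, for Tet-MIST1 (blue) and Tet-PTF1a (orange) against Tet-One, with 95% intervals and filled points for an adjusted p under 0.05. CDH1 lies at -3.11 in Tet-MIST1 and at 1.42 in Tet-PTF1a, and CDH2 at -5.02 and 1.04.

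Over the 6 groups, the order of mean levels differed from gene to gene. CDH1 was highest in Tet-PTF1a Dox at 24.6 ± 1.69 CPM (SD, n = 4), then in Tet-PTF1a Control at 14.01 ± 0.351 CPM, Tet-One Control at 4.91 ± 0.307 CPM and Tet-One Dox at 3.85 ± 0.747 CPM, and lowest in the Tet-MIST1 groups at 0.575 ± 0.156 CPM (Dox) and 0.525 ± 0.0926 CPM (Control). The 2 Tet-One neighbours overlapped, as did the 2 Tet-MIST1 neighbours. ZEB2 had the same order for its upper 4 groups, from 18.3 ± 1.10 CPM in Tet-PTF1a Dox to 10.1 ± 2.44 CPM in Tet-One Dox. In Tet-MIST1 Control and Dox it was at 1.03 ± 0.199 and 0.911 ± 0.153 CPM. Tet-PTF1a Control and Tet-One Control overlapped for ZEB2, as did the 2 Tet-One groups. The last step of that order depends on Tet-One Dox replicate 1, at 6.48 CPM against 11.1 to 11.7 CPM in the others. Without that library, the Tet-One log2 fold change of ZEB2 went from -0.11 to 0.05. VIM was highest in Tet-One Dox at 6955 ± 964 CPM and lowest in Tet-PTF1a Dox at 3808 ± 56.0 CPM, a ratio of 1.83. Tet-One Dox replicate 1, at 8397 CPM, raised that mean and SD, while the other libraries of its group were at 6408 to 6581 CPM. SNAI1 ran from 22.7 ± 2.12 CPM in Tet-One Control to 8.90 ± 0.648 CPM in Tet-PTF1a Control, and ZEB1 spanned least, with a ratio of 1.38 between its highest and lowest group.

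The relative level of both classical cadherins was described by the log2 ratio of CDH1 to CDH2 per kb of exon in each library, without a test. CDH2 exceeded CDH1 in Tet-One Control, at a mean log2 ratio of -2.23 ± 0.117 (SD, n = 4), and in Tet-PTF1a Control at -1.83 ± 0.0528. In Tet-PTF1a Dox the ratio was -0.94 ± 0.104, with a range of -1.07 to -0.82 that lay above the whole Tet-PTF1a Control range of -1.91 to -1.80. CDH2 was still 1.92-fold above CDH1 there, against 3.56-fold in Control. In Tet-MIST1 the ratio was near 0 (-0.31 ± 0.172 in Control and -0.26 ± 0.415 in Dox), at levels of both genes under 1 CPM.

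**Figure D4:**
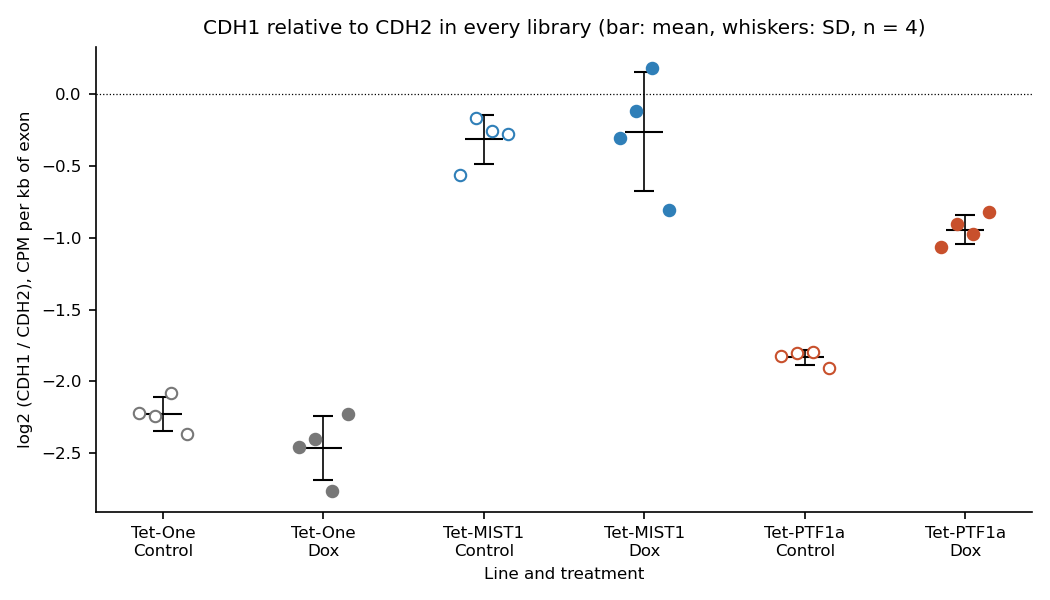
Log2 ratio of CDH1 to CDH2 (y axis, CPM per kb of exon) in every library of the 6 groups, with bars for the mean and whiskers for the SD (n = 4). The Tet-PTF1a Dox libraries, at -1.07 to -0.82, lie above the Tet-PTF1a Control libraries, and all Tet-One libraries lie below -2.

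Close relatives of the EMT genes gave further values. ESRP2, the paralog of ESRP1 with an overlapping role in epithelial splicing, was at 35.1, 39.7, 37.6 and 36.2 CPM in Tet-PTF1a Control and at 20.4, 17.8, 18.9 and 19.5 CPM in Tet-PTF1a Dox. It fell by 0.94 on the log2 scale (SE 0.0487; edgeR adjusted p = 2.18e-22), and the Tet-PTF1a response was lower than the Tet-One response by -0.92 (adjusted p = 6.84e-04). Per kb of exon, ESRP2 stood at 9.23 CPM and ESRP1 at 1.09 CPM in Tet-PTF1a Control, so the paralog was the more abundant. TWIST2, related to TWIST1, was at 3.04, 3.30, 3.23 and 2.99 CPM in Tet-PTF1a Control and at 1.78, 2.36, 2.01 and 2.01 CPM with Dox, a log2 fold change of -0.58 ± 0.131 (SE; edgeR adjusted p = 2.08e-04). In Tet-One it was at 1.25 to 2.05 CPM in Control and 2.20 to 3.19 CPM with Dox. That log2 fold change of 0.57 did not pass the test (edgeR adjusted p = 0.897). The Tet-PTF1a response was lower than the Tet-One response by -1.16 (edgeR adjusted p = 0.00111). SNAI3 and PRRX1 were not analysed here.

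Lists of genes around the EMT programme, 10 in number, were then counted in the Tet-PTF1a Dox comparison, to be read against the 23.8% higher and 24.4% lower over all genes. Of 31 tested genes of epithelial adhesion and keratins, 11 rose, 17 fell and 3 did not pass the test, with a median log2 fold change of -0.22 against 0.0014 over all genes. SPINT1, an inhibitor of membrane serine proteases, rose from 5.96 ± 0.494 to 22.2 ± 0.375 CPM (SD, n = 4) and KRT7, a ductal keratin, from 1.44 ± 0.348 to 4.52 ± 0.567 CPM. The simple epithelial keratins KRT8 and KRT18 fell, from 1820 ± 48.2 to 742 ± 11.4 CPM and from 1116 ± 21.9 to 522 ± 11.9 CPM. The genes of this list therefore moved in both directions beside CDH1. Of 15 catenins and cadherin partners, 9 rose and 1 fell: VCL, which encodes vinculin, rose from 776 ± 17.8 to 1098 ± 10.3 CPM, and CTNNAL1, an alpha-catenin-like gene, fell from 134 ± 5.65 to 99.6 ± 2.45 CPM. Of 8 other cadherins, 2 rose (CDH10 and CDH15, by 1.26 and 0.97 on the log2 scale) and 4 fell, among them P-cadherin (CDH3, log2 -1.47) and CDH17 (log2 -0.75).

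Of 44 tested mesenchymal matrix, contractile and surface genes, 10 rose and 23 fell, with a median log2 fold change of -0.19. COL1A1, a chain of type I collagen, fell from 153 ± 3.26 to 64.5 ± 0.994 CPM, and MMP2, a gelatinase, from 109 ± 1.92 to 47.1 ± 1.78 CPM. THBS1, which encodes thrombospondin-1, rose from 6.21 ± 0.491 to 37.7 ± 1.96 CPM, and COL3A1, a fibrillar collagen, from 6.36 ± 0.590 to 16.3 ± 0.504 CPM. Of 12 intermediate filament genes and partners of vimentin, 4 rose and 8 fell. Lists can share genes: KRT8 and KRT18 are among these lower genes and also in the list of epithelial adhesion and keratins. NES, which encodes nestin, a filament protein that assembles with vimentin, rose from 214 ± 5.20 to 782 ± 21.1 CPM in the libraries in which VIM fell. Of 16 fibronectin receptors and matrix partners, 3 rose and 9 fell, with ITGA3 and ITGB3, which encode integrin chains, at log2 fold changes of -0.86 and -0.89.

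Of 22 other EMT transcription factors, 7 rose and 8 fell: ETS1 by 0.36 and FOXC1 by 0.33 on the log2 scale rose most, and FOXF2 (-0.74) and PRRX2 (-0.68) fell most among those meeting the naming rule. Of 11 epithelial transcription factors, 3 rose and 4 fell. FOXA1, a pioneer factor of foregut epithelium, rose from 1.04 ± 0.181 to 4.54 ± 0.390 CPM and the grainyhead factor GRHL3 from 18.7 ± 0.745 to 43.1 ± 0.512 CPM, while ELF3 fell from 6.79 ± 0.598 to 3.41 ± 0.142 CPM. Of 15 splicing factors of the EMT switch, 2 rose and 6 fell, with RBM47 (log2 -0.97) beside ESRP2 among the lower ones. Of 24 corepressors used by SNAI and ZEB factors, 8 rose, EZH2 and HDAC2 among them (0.39 and 0.30), and 6 fell, EHMT2 and SIRT1 among them (both -0.20).

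In Tet-MIST1 cells the same lists had fewer calls, with 6 higher and 4 lower of 31 epithelial adhesion genes and keratins and 7 higher and 6 lower of 40 mesenchymal genes, against 11.9% and 8.77% over all genes. LLGL2, a polarity gene, rose from 14.4 ± 0.658 to 20.7 ± 1.89 CPM. The tight junction genes moved in both directions. CLDN4 rose by 0.30 on the log2 scale, from 103 ± 6.18 to 126 ± 6.65 CPM, while OCLN and CLDN1 fell by 0.29 and 0.31. VCL fell there, from 989 ± 28.8 to 763 ± 126 CPM. Its Dox libraries spread widely, from 574 to 835 CPM, against 950 to 1016 CPM in Control. By edgeR's quasi-likelihood test, 0 of 14 splicing factors, 0 of 5 other cadherins, 1 of 13 catenins and partners and 3 of 13 intermediate filament genes were called. So were 5 of 15 fibronectin partners, 4 of 20 other EMT factors, 2 of 9 epithelial factors and 2 of 24 corepressors. In Tet-One cells no gene of the lists was called by the same test.

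**Figure D5:**
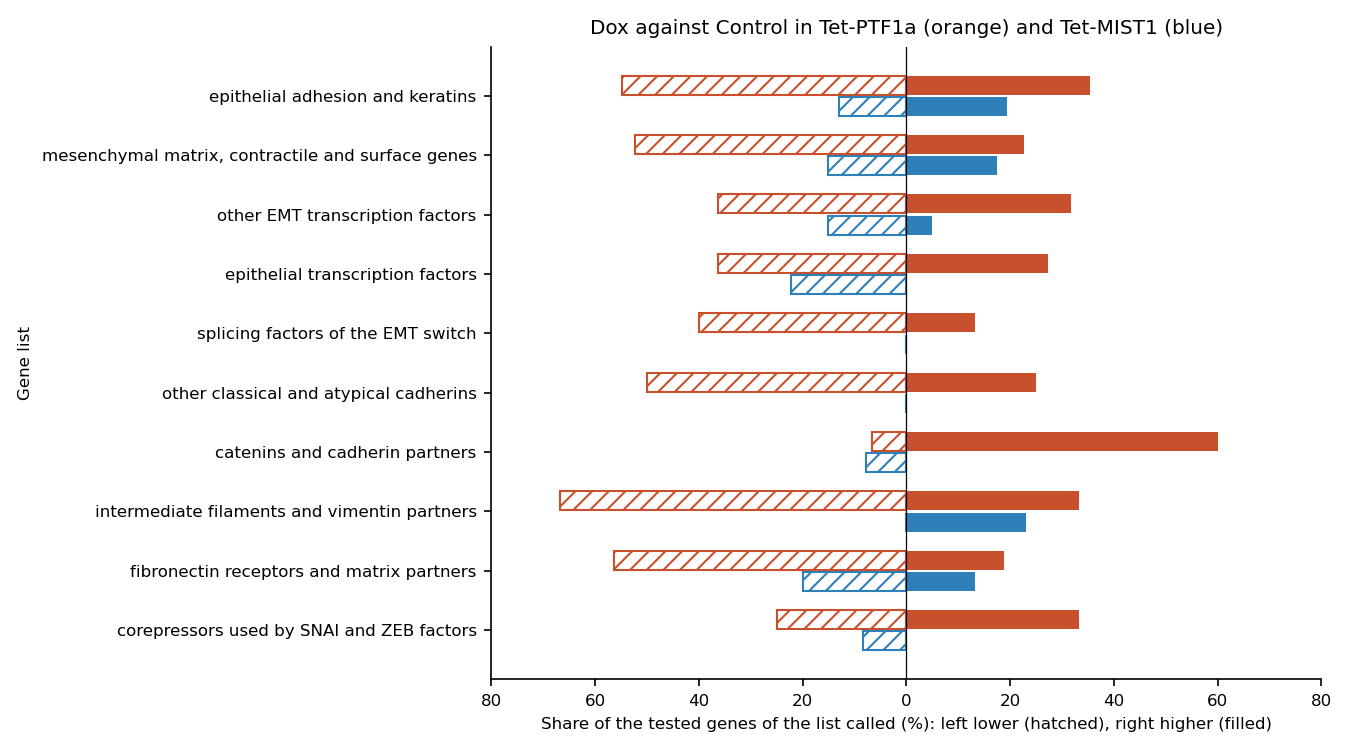
Share of the tested genes of each list called higher (filled, to the right) and lower (hatched, to the left) with Dox in Tet-PTF1a (orange) and Tet-MIST1 (blue) cells, in percent. In Tet-PTF1a, 9 of 15 catenins and partners were higher and 1 was lower. Of 12 intermediate filament genes and partners, 8 were lower and 4 higher. Over all genes tested in that line, 23.8% were higher and 24.4% lower, shares that are not drawn.

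The genes whose log2 CPM followed an EMT gene most closely over the 24 libraries were named by Pearson's r, as a description. The libraries fall into 3 lines and share their depth and scaling, so these values mostly describe differences between lines, and they carry no p. NR5A2, an orphan nuclear receptor of acinar cells, followed CDH1 most closely (r = 0.996 among 12038 genes), before LMAN1 (0.994) and ZDHHC20 (0.993). FBN1, which encodes the matrix protein fibrillin-1, followed ESRP1 (0.987), before LINC00472 (0.986) and the desmosomal cadherin gene DSC2 (0.983). VIM was followed by MAPK12 (0.988), NUP85 (0.976) and PEX10 (0.974), and ZEB1 by GON4L (0.972), TCF12 (0.962) and SPTBN1 (0.960).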

How the data were processed

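RNA of 24 Panc-1 libraries was sequenced by the authors on a HiSeq instrument and aligned with TopHat to hg19. The processing notes also name HTSeq, edgeR and DESeq, and counting tool version, annotation and use of strand are not given in the sources used here. The authors' filter was a CPM over 0.5 in 4 or more samples. The deposited tables hold raw counts per gene and a second set of values, treated here as a score: the authors' CPM, each count divided by 1 number per library, which is not the library total. Tet-One and Tet-MIST1 were scaled together (13879 genes) and Tet-PTF1a apart (14053 genes). Columns of the authors' own fold changes, p-values and FDR were not used. Gene names that a spreadsheet had turned into dates (18 to 20 per table) were left as they were.

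The members and lists were chosen with earlier results of these data known. Counts were tested with edgeR 4.0.16 (R 4.3.3): TMM scaling, a filter of 0.5 CPM in at least 4 libraries, robust quasi-likelihood fits, prior count 2 and Benjamini-Hochberg adjustment over all genes tested at 0.05. The SE is the log2 fold change over the root of F, and intervals are at 95%. In each line Dox was set against Control, responses were compared by an interaction of line and Dox, and the Control libraries of the lines directly, 8 comparisons in all. The study calls its replicates biological, which the labels do not specify, so p-values cover the spread between these libraries. Replicate numbers did not pair samples (correlations of deviations -0.341 to 0.310), and no 2 libraries of a group agreed within counting error (chi-square per degree of freedom at least 1.39). The fits were tested on simulated data. Alternatives were DESeq2 1.42.0, other scalings and filters, a replicate block, 1 fit of all libraries, removal of a loess trend with length (span 0.5) and leaving out each library. Totals of 17210989 to 43018494 counts set the precision, which is low for genes with under 50 counts. Named genes were the 10 members, ESRP2, SNAI3, TWIST2 and PRRX1, and per list and Dox comparison up to 2 higher and 2 lower calls with the greatest log2 fold change, a mean over 1 CPM and no overlap, besides the 3 genes most correlated with CDH1, VIM, ESRP1 and ZEB1. Promoters are from RefSeq (GRCh38.p14).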

Additional observations from a re-analysis of the deposited data

Results flagged for a closer look

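Of 48 combinations of a gene and a group of 4 libraries, 3 held a library far from the others, and chance gives about 1 in 20 such groups. CDH1 in Tet-PTF1a Control replicate 4 was at 13.5 CPM, below 14.1 to 14.2 CPM in the other 3 libraries. VIM was at 8397 CPM in Tet-One Dox replicate 1, above 6408 to 6581 CPM in the others, and ZEB2 at 6.48 CPM in that same library, below 11.1 to 11.7 CPM. That library is the one whose deviations fell with exon length, and whether this accounts for the VIM and ZEB2 values was not tested.

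The response to Dox differed between lines by the test of the difference itself in 7 cases. These were 3 of 8 EMT genes for Tet-PTF1a against Tet-One and 4 of 8 for Tet-PTF1a against Tet-MIST1. Of all genes tested, 12.8% and 36.4% were called in these comparisons. Against the Tet-One response, the Tet-PTF1a response was higher by 1.15 for CDH1 and 0.70 for ZEB2 and lower for VIM (-0.49) on the log2 scale. Against the Tet-MIST1 response it was higher by 0.69 for CDH1, 1.07 for FN1 and 0.76 for ZEB2 and lower for VIM (-0.29). All 4 Tet-PTF1a Dox libraries lay on 1 side of the Control range for CDH1, VIM and ZEB2, but not for FN1.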

How the results depend on the processing

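With CDH1, VIM and ZEB2 in Tet-PTF1a Dox, the call and direction were kept under every alternative run. The count of EMT genes called there went from 5 to 3 (CDH1, VIM and ZEB2) with DESeq2 and with all 24 libraries in 1 fit, was 3 to 5 when 1 library was left out, and was 7 with the length trend removed, where CDH2 (-0.089) and SNAI1 (0.17) were called too. The difference between the Tet-PTF1a and Tet-MIST1 responses went from 4 to 2 EMT genes (VIM and ZEB2) in the fit of all libraries and to 3 (CDH1, VIM and ZEB2) with DESeq2. Leaving out 1 library gave 0 to 1 for Tet-MIST1 Dox. Across all genes, the fit of all libraries called 1705 instead of 2812 for Tet-MIST1 Dox, 3131 instead of 6776 for Tet-PTF1a Dox, 530 instead of 231 for the Tet-MIST1 against Tet-One response and 2716 instead of 4921 for the Tet-PTF1a against Tet-MIST1 response. DESeq2 called 499 and the length trend removal 628 for the Tet-MIST1 against Tet-One response, and the latter 2676 instead of 1736 for Tet-PTF1a against Tet-One. Leaving out 1 library gave 1436 to 3770 calls for Tet-MIST1 Dox, 0 to 1 for Tet-One Dox, and 144 to 1931 and 1393 to 4154 for the responses of Tet-MIST1 and Tet-PTF1a against Tet-One, the highest both without Tet-One Dox replicate 1. The lowest values for Tet-MIST1 Dox came without Control replicate 1, 2 or 3 (1460, 1772 and 1436), and for the Tet-MIST1 against Tet-One response without Tet-MIST1 Control replicate 1, 3 or 4 (144, 145 and 149). The causes were not tested.

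With a replicate block, calls over all genes went to 1462 for Tet-MIST1 Dox and 83 for the Tet-MIST1 against Tet-One response, ESRP1 was no longer called in Tet-PTF1a Dox (adjusted p = 0.0798), nor ZEB2 in the Tet-PTF1a against Tet-One response (0.73, adjusted p = 0.0861). The numbers share only a number here. Under the block 4 EMT genes were called in Tet-PTF1a Dox, 2 and 4 in its responses against Tet-One and Tet-MIST1, 7 and 6 in the Control comparisons and 0 elsewhere. Among all genes, the block called 6705 of 14051 in Tet-PTF1a Dox. It called 1229 and 4171 of 13519 in those responses. For Tet-MIST1 and Tet-PTF1a Control against Tet-One Control it called 11002 of 13823 and 10771 of 13442.

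Library size scaling moved the share of higher calls in Tet-PTF1a Dox from 49.4% to 61.9% and in its response against Tet-One from 43.0% to 54.1%, and DESeq2 moved that of the Tet-MIST1 against Tet-One response from 88.7% to 71.3%. Directions that reversed were those of changes that were not called in the fits reported above. With library size scaling ZEB1 went to 0.029 in Tet-PTF1a Dox, 0.0017 in the Tet-MIST1 against Tet-One response and 0.052 in Tet-PTF1a against Tet-One Control. With the length trend removed ZEB2 went to 0.015 in Tet-One Dox and -0.36 in Tet-PTF1a against Tet-One Control (called), and CDH2 to -0.020 in the Tet-PTF1a against Tet-One response. SNAI1 went to 0.0011 in Tet-MIST1 Dox in the fit of all libraries, and ZEB1 to 0.013 in the Tet-MIST1 against Tet-One response with the replicate block. When 1 library was left out, signs changed within ranges of -0.051 to 0.14 (CDH2), -0.072 to 0.21 (ESRP1), -0.026 to 0.029 (SNAI1) and -0.049 to 0.0024 (VIM) in Tet-MIST1 Dox, -0.071 to 0.012 (SNAI1), -0.25 to 0.00066 (ZEB1) and -0.19 to 0.049 (ZEB2) in Tet-One Dox, and -0.030 to 0.020 (ZEB1) in Tet-PTF1a Dox. They changed within -0.079 to 0.23 (ESRP1), -0.43 to 0.19 (FN1), -0.023 to 0.061 (SNAI1), -0.16 to 0.076 (ZEB1) and -0.20 to 0.034 (ZEB2) in the Tet-MIST1 against Tet-One response, -0.044 to 0.086 (CDH2) and -0.0018 to 0.25 (ZEB1) in the Tet-PTF1a against Tet-One response, and -0.18 to 0.42 (FN1) in Tet-MIST1 against Tet-One Control. ZEB1 was no longer called in Tet-MIST1 against Tet-One Control with all libraries in 1 fit (adjusted p = 0.0801). ESRP1 passed the filter of the Control comparisons in 4 of 8 fits that left out a library. The mean VIM level of Tet-MIST1 Control went from 4981 to 5081 CPM with TMM values of that line alone. Depth limits CDH1, CDH2 and ZEB2 in Tet-MIST1 and ESRP1 in Tet-One, with 5 to 53 counts per library.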
